A study of Homo sapiens with 4 samples.

Results

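The genes described here carry the symbol ZNF followed by a number and at most 1 letter, the systematic name of human zinc finger genes. Of 444 such genes with any count, 122 had at least 200 counts summed over all transcripts and all 4 libraries. They stand among 14911 genes with a count and 5320 genes that reached the same total, which are called the tested genes below. The libraries are m6A-seq of HEK293T, a line derived from human embryonic kidney that carries the SV40 large T antigen. In m6A-seq, poly(A) RNA is fragmented and sequenced before (input) and after pull-down with an antibody against N6-methyladenosine (m6A-IP). Such a pair of libraries was available for control cells, which carry a control hairpin (shCTL), and for ALKBH5 knockdown cells (shA5). ALKBH5 is an enzyme that removes m6A from RNA. All 4 libraries came from cells exposed to X-rays, at 10 Gy per the study's methods, and each group held 1 library. The shRNAs were delivered by lentivirus with puromycin selection. Which of the study's ALKBH5 shRNAs was used for these libraries and the time from exposure to harvest were not given in the sources used here. An unexposed population was not analysed here, so the values describe irradiated cells in both arms.

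Most ZNF proteins bind DNA through C2H2 zinc fingers, short folds in which a pair of cysteines and a pair of histidines hold a zinc ion. Many also carry an N-terminal KRAB domain, which recruits the corepressor TRIM28 and, through it, histone methyltransferases and HP1 proteins that silence retroelements and other targets. KRAB zinc finger genes arose by repeated duplication, largely in clusters on chromosome 19, and their fingers are mostly encoded in a single long last exon, a place where m6A is commonly found.

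The deposited counts summed to between 1311390 (shA5 input) and 3944402 (shCTL m6A-IP) per library, and the ZNF genes took 1.41 and 1.42% of the counts in the shCTL and shA5 inputs and 2.31 and 2.39% in the m6A-IPs. ALKBH5 itself fell from 486 input counts in shCTL to 145 in shA5 (log2 -0.97, 95% interval -1.25 to -0.70), the direction that the label gives. Of 6 markers of HEK293T, KRT8 had 48, 84, 27 and 117 counts. Here and below, 4 counts in a row stand for input and then m6A-IP of shCTL, followed by the same pair of shA5. PAX2 had 1 count in all, and KRT18, VIM, NEFM and INA had between 2 and 30 counts per library, so the markers give little check of the label. PTPRC, ALB, HBB and MYH7, which mark blood, liver, erythroid and muscle cells, were listed in none. The listing of a transcript went with the bases that it does not share. Of 30130 coding transcripts with no base outside the other coding transcripts of their gene, 19.8% were listed. Of 5581 transcripts with over 1000 such bases, 85.8% were. The sum of a gene may thus cover only part of it, though how reads were assigned is not given in the sources used here. Levels of different genes were not compared.

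By the proteins their most counted transcripts encode (Gencode v44), 49 of the 122 ZNF genes had a KRAB domain and 73 did not (other ZNF genes). A domain was called where at least 30 residues aligned to the KRAB domain of ZNF10 with at least 40% identity. A C2H2 finger was found in 110, with a median of 9 fingers over all members and 33 in ZNF462, and 54 members had at least 10. No finger of the searched spacing was found in 12, among them ZNF503, ZNF703 and ZNF330. Chromosome 19 held 41 members, of which 25 (61.0%) were KRAB genes, and chromosomes 7 and 16 held 13 each. Compared with the tested genes, the longest exon was longer (median 3264 against 1891 bases) and made up more of the transcript (86.6 against 58.1%).

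Counts were scaled by the library total (CPM), and m6A enrichment is reported as the log2 of the m6A-IP level over the input level after 0.5 CPM was added to each. ZNF mRNAs were more often enriched in the m6A-IP than tested genes as a whole. In shCTL, 53 of 122 members (43.4%) were enriched at least 1.5-fold, where 22.5% of all tested genes were, and in shA5 54 members (44.3%) were, where 24.3% of tested genes were. At least 1.5-fold depletion was seen in 20 members (16.4%) in each population, against 30.3% of tested genes in shCTL and 31.7% in shA5. The median log2 enrichment of the members was 0.46 in shCTL and 0.50 in shA5, with quartiles of -0.24 and 0.83 in shCTL. Over all tested genes the medians were -0.11 and -0.10. With 1 library per group no test was made. Exact 95% intervals of single genes cover counting error only, and sequenced fragments that are copies of 1 molecule are not told apart. In shCTL such an interval lay above 0 for 68 members (55.7%; 33.7% of tested genes) and below 0 for 26 (21.3%; 42.3% of tested genes). Without the filter on counts the difference in depletion nearly vanished in shCTL, at 35.6% of 444 ZNF genes against 36.7% of 14911 genes, and the ZNF median fell to -0.094, against -0.22 for all genes.

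**Figure D1:**
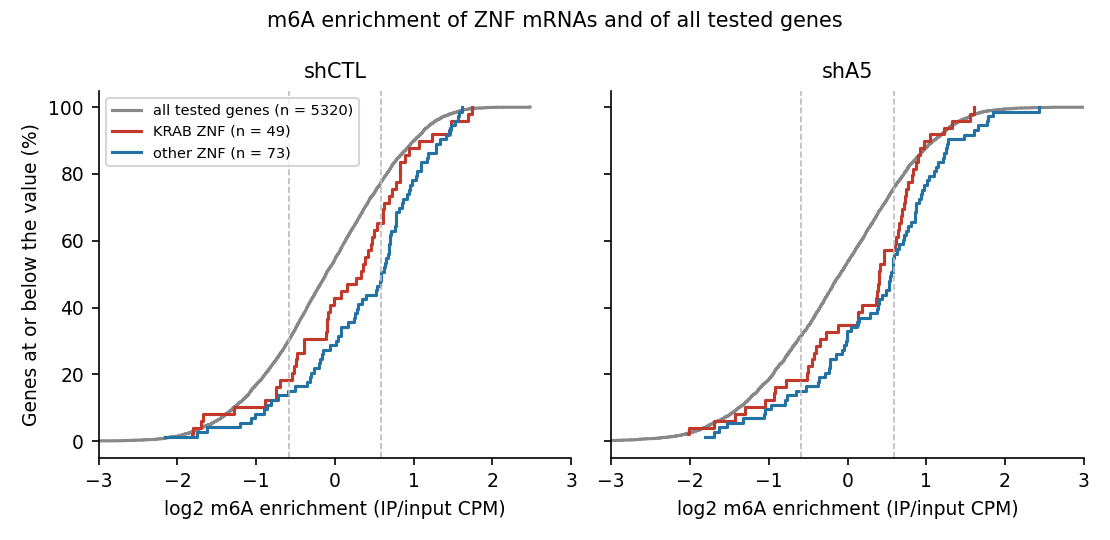
Cumulative share of genes (vertical axis, %) against log2 m6A enrichment (horizontal axis, IP over input CPM) in shCTL and shA5, for 49 KRAB ZNF genes, 73 other ZNF genes and 5320 tested genes. Dashed lines mark 1.5-fold. Both ZNF curves lie to the right of the curve of all genes over most of the range, with medians of 0.34 (KRAB) and 0.58 (other) in shCTL against -0.11.

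The total that chose the genes includes the m6A-IP counts, so a gene high in the m6A-IP passed it more easily, member or not. When genes were chosen by at least 70 counts in both inputs together, 121 ZNF genes passed, not all of them among the 122, and 38.0% were enriched at least 1.5-fold in shCTL, against 18.2% of 5586 genes. In shA5 the shares were 38.0 and 20.01%. Just inside the total of 200 were ZNF131 (205 counts), ZNF430 (208) and ZNF267 (210), and just outside were ZNF823 (194), ZNF23 (192) and ZNF592 (191).

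The most counted members were ZNF503 and ZNF703, paralogous corepressors related to fly NocA that act in development and lack the tandem fingers of the family. ZNF503 had 3426 input and 17928 m6A-IP counts in shCTL, and 1839 and 15106 in shA5. This was an enrichment of 2.97-fold in shCTL (log2 1.57, 95% interval 1.52 to 1.62) and 3.42-fold in shA5. ZNF703 had 2649, 9650, 1376 and 8015 counts in the same order, or 2.07-fold and 2.43-fold enrichment. Both m6A-IPs stood above both inputs for each of these genes. Of the other most counted members, ZNF316 (KRAB, 14 fingers) was enriched 2.77-fold in shCTL and ZNF629 (19 fingers) 1.70-fold. ZNF318, a nuclear protein that governs the choice between IgM and IgD mRNAs in B cells, was enriched 1.62-fold, and ZNF512B 1.23-fold.

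Among members with at least 30 counts in both inputs, the highest enrichment in shCTL was that of ZNF503, followed by ZNF276, ZNF775, ZNF316, ZNF697 and ZNF830, whose log2 values ran from 1.57 down to 1.44. Their intervals overlapped, so their order was not resolved. ZNF775 (11 fingers) had 124 input and 632 m6A-IP counts in shCTL, and 54 and 450 in shA5, which gives 2.87-fold and 3.44-fold. ZNF830, a nuclear protein found with the splicing factor XAB2 and encoded by a single exon, had 205 and 987 counts in shCTL and 126 and 848 in shA5 (2.72-fold and 2.79-fold). The count of ZNF276 (54, 284, 52 and 295) is uncertain, because 48.5% of its counted transcript lies opposite exons of FANCA and whether the counting used strand is not given in the sources used here. The same doubt holds for 17 members with at least 10% of the counted transcript opposite exons of another gene, among them, of those described below, ZNF22 (37.9%), ZNF587 (35.5%), ZNF770 (31.9%), ZNF460 (25.6%), ZNF165 (20.1%) and ZNF428 (17.7%).

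At the other end stood ZNF207, the microtubule-binding protein BuGZ that loads BUB3 onto kinetochores. It had 346 input and 135 m6A-IP counts in shCTL, and 226 and 166 in shA5. Its log2 enrichment was -2.16 (-2.47 to -1.88) in shCTL and -1.70 in shA5, so its mRNA was depleted in both m6A-IPs. ZNF736, ZNF493, ZNF106, ZNF587 and ZNF587B followed with log2 values of -1.81 to -1.67 in shCTL. ZNF493, a KRAB gene with 18 fingers, had 139 and 69 counts in shCTL and 107 and 62 in shA5, a depletion to 0.287 and 0.246 of the input level. Of these 6 genes 4 (ZNF736, ZNF493, ZNF587 and ZNF587B) had a KRAB domain. The counted transcripts of ZNF207, ZNF106, ZNF587B and ZNF493 had at most 8.24% of their bases outside other coding transcripts of the gene. Their values may rest on small parts of the genes, which was not tested. The counted transcript of ZNF106, with 0.55% such bases, had 72 of the gene's 83 input counts in shCTL. For ZNF207, the most counted transcripts ENST00000394670 (189, 46, 90 and 51 counts) and ENST00000394673 (151, 89, 130 and 114) were both depleted in each m6A-IP.

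**Figure D2:**
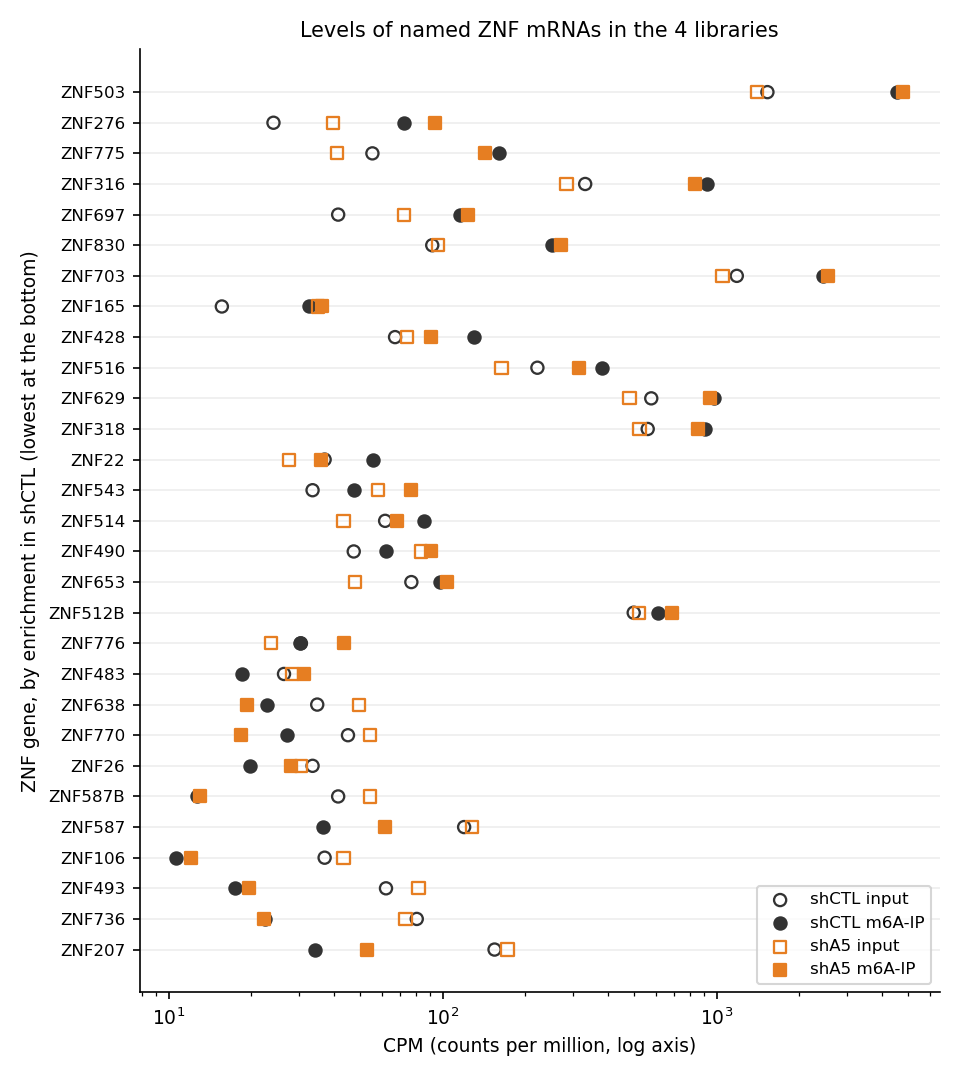
CPM (log axis) of the named ZNF genes in each of the 4 libraries, 1 point per library, ordered by enrichment in shCTL with the lowest at the bottom. Filled points (m6A-IP) lie to the right of open points (input) from ZNF503 down to ZNF697 and to the left of them from ZNF207 up to ZNF587B.

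Of the 122 genes, 44 (36.1%) were enriched at least 1.5-fold in both populations, where 18.7% of tested genes were, and 18 (14.8%) were depleted in both, where 26.3% were. Another 9 (7.38%) were enriched in shCTL alone and 10 (8.20%) in shA5 alone, against 3.78 and 5.58% of tested genes. Depletion in 1 population alone was seen in 2 members (1.64%) each, against 3.97% of tested genes in shCTL and 5.38% in shA5. No member (0) passed from enriched to depleted or the reverse, and 2 tested genes (0.0376%) did. Whether a gene that passed in 1 population only differed between them is given by the change of enrichment below.

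The level of enrichment moved with base composition. Across the 122 members, Spearman's rho between the GC content of the counted transcript and the log2 enrichment in shCTL was 0.52, in the 49 KRAB genes 0.61 and in the 73 others 0.46, against 0.36 across 5307 tested genes with an annotated transcript. These genes share the same libraries and are not independent, and no p was computed. The 51 members above the median GC content of tested genes (51.4%) had a median log2 enrichment of 0.77 in shCTL and 0.82 in shA5. The 71 members at or below it had 0.08 and 0.14. Tested genes of the same ranges had 0.15 and 0.23 above the median GC and -0.43 and -0.47 below it. The median of the ZNF genes thus lay above that of all tested genes in both ranges. With a smooth GC trend over all tested genes removed, 38.5% of members were enriched at least 1.5-fold in shCTL against 21.0% of tested genes.

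**Figure D3:**
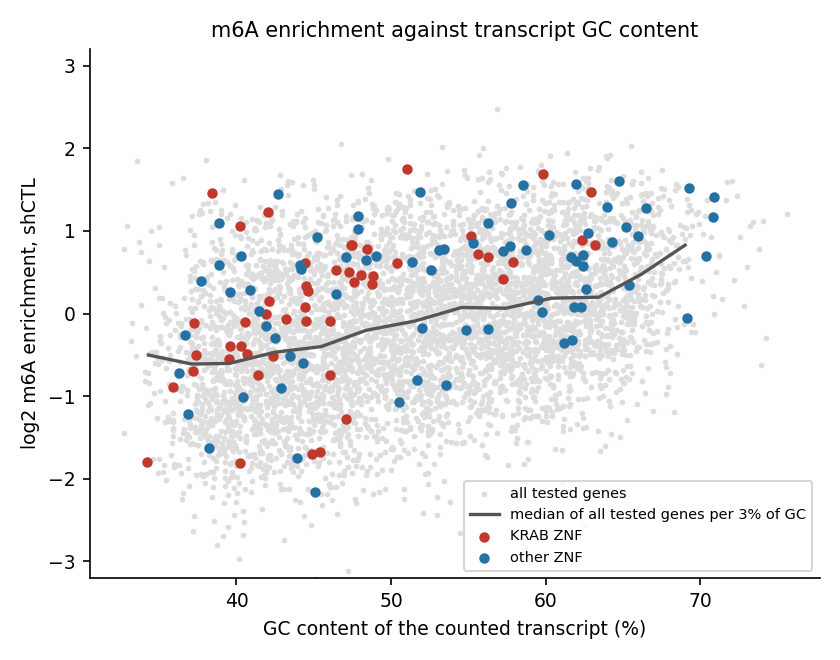
Log2 m6A enrichment in shCTL (vertical axis) against the GC content of the counted transcript (horizontal axis, %), for KRAB ZNF genes, other ZNF genes and all tested genes, with the median of all tested genes per 3% of GC as a line. KRAB genes spanned 34.2 to 63.2% GC and most lay left of 50%, and ZNF points of both kinds lay mostly above the line.

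KRAB genes had a lower GC content than the others (median 44.9 against 53.4%) and a lower median log2 enrichment (0.34 against 0.58 in shCTL, 0.40 against 0.55 in shA5). The 9 KRAB genes above the median GC content had a median of 0.83 in shCTL, next to 0.77 for the 42 others of that range. The 40 KRAB genes at or below it had -0.04 in shCTL, next to 0.26 for 31 others, but in shA5 the order was the other way (0.28 next to 0.12). The difference of medians between KRAB and other members, -0.25 in shCTL and -0.14 in shA5, became -0.01 and 0.14 with the GC trend removed and -0.03 and 0.10 without the 40 members that share at least 10% of their 25-base stretches with other genes. KRAB genes shared more sequence in this way (median 9.98 against 1.14% of stretches), up to 87.5% in ZNF564, and how reads of such stretches were counted is not given in the sources used here. The part of shared sequence in these values was not tested beyond leaving these genes out.

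m6A is placed in a short motif called RRACH, in which R stands for a purine and H for any base but G. It was searched on the transcript strand. The members held 13.3 such sites per kb of transcript (median), the same as all tested genes (13.3). The preferred form GGACH, which is part of RRACH, stood at 2.90 per kb in members and 3.38 per kb in tested genes. In non-overlapping 30-base windows of the coding sequence, 8.53% of windows of members and 10.5% of windows of tested genes held GGACH, and 35.0 and 32.8% held any RRACH. Spearman's rho between the GGACH density and enrichment in shCTL was 0.39 across members, 0.62 across KRAB genes and 0.28 across 5307 tested genes, a description only, since this density also counts G and C. For all RRACH sites per kb it was -0.16 across members and -0.04 across tested genes.

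GGACH sites in the coding sequence of the members of highest and lowest enrichment are shown with the motif in capitals (hg38, transcripts of Gencode v44, 5′ to 3′ on the mRNA strand). They are a match to letters and not a measured m6A site.
ZNF503, exon 2 of 2, chr10:75400209-75400238, minus strand: ctgcgggcgacaaGGACAccaaatcgggcc
ZNF775, exon 3 of 3, chr7:150396798-150396827, plus strand: actttgtatgcctGGACTgcgggaagaggt
ZNF830, exon 1 of 1, chr17:34961576-34961605, plus strand: tccgcctccgcccGGACTccggcagggaag
ZNF207, exon 4 of 11, chr17:32360713-32360742, plus strand: aatggcacagccaGGACTgccaccagtacc
The counted transcript of ZNF503 held 20 GGACH sites (6.24 per kb), that of ZNF775 13 (5.75 per kb), that of ZNF830 5 (2.23 per kb) and that of ZNF207 10 (4.71 per kb). ZNF503 and ZNF775, enriched in both m6A-IPs, thus held more of these sites per kb than the median tested gene (3.38). So did ZNF207, whose mRNA was depleted in both, and ZNF830, enriched in both, held fewer.

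C2H2 fingers are joined by a conserved linker, whose residues read TGEKP. Such linkers were found in 69 of 122 members and in 2.04% of tested genes, 277 in all and 187 of them in KRAB genes. The linker's lysine decides whether its codons hold an RRACH site: with AAA before the CC of the proline codon the letters read AAACC, which is a form of RRACH, and with AAG they read AAGCC, which is not. All 149 linkers (53.8%) with an AAA codon held a site, and all 128 with an AAG codon held none. These were 4.05% of the 3675 RRACH sites in the members' coding sequences. AAACC was held by 5.80% of 30-base coding windows of members and by 2.50% of those of tested genes.

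Linkers are shown with their lysine codon and the following CC in capitals, from members with depleted mRNA first (ZNF493, ZNF736), then members with enriched mRNA (ZNF564, ZNF316, ZNF697, ZNF629).
ZNF493, exon 4 of 4, chr19:21423767-21423796, plus strand: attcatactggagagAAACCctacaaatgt
ZNF736, exon 4 of 4, chr7:64348527-64348556, plus strand: gttcatactggagagAAACCttacaaatgt
ZNF564, exon 4 of 4, chr19:12527595-12527624, minus strand: actcacactggtgagAAACCctatgcatgt
ZNF316, exon 9 of 9, chr7:6652776-6652805, plus strand: acgcacaccggcgagAAGCCcttcccgtgc
ZNF697, exon 3 of 3, chr1:119623386-119623415, minus strand: ctgcacacgggcgagAAGCCctacccgtgc
ZNF629, exon 3 of 3, chr16:30783704-30783733, minus strand: acgcacaccggcgagAAGCCctacaagtgc
The 44 members enriched in both populations had 105 linkers, of which 36 (34.3%) used AAA. The 18 members depleted in both had 41 linkers in 8 genes, of which 34 (82.9%) used AAA. Linkers with the RRACH letters were therefore more frequent in the depleted than in the enriched members. The lysines outside linkers went the same way, with AAA at 37.6% in the enriched and 64.9% in the depleted members. ZNF493 (log2 enrichment -1.80 in shCTL) had the site in 6 of 6 linkers, and ZNF564 (log2 1.23; 36, 152, 26 and 131 counts) in 7 of 8. ZNF460 (log2 0.27) had it in 0 of 6. Across the 122 members, Spearman's rho between the number of such linkers and enrichment in shCTL was -0.15.

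The populations were compared by the change of enrichment, the log2 enrichment in shA5 minus that in shCTL. Each library was scaled to its own total, so a rise or fall of m6A common to all mRNAs is removed, and a change is relative to the other genes. Over the members its median was 0.00, as over all tested genes (0.00). Enrichment was at least 1.5-fold higher in shA5 for 9 members (7.38%; 5.38% of tested genes) and at least 1.5-fold lower for 7 (5.74%; 5.09% of tested genes). The shares of the members were thus near those of all genes. The exact interval of the change excluded 0 for 5 of the 9 (55.6%) and 6 of the 7 (85.7%), against 60.8 and 69.7% of the tested genes called in each direction. Its width was 1.04 on the log2 scale in the median member, so that changes under about 1.5-fold were not resolved in most genes. In ZNF503, the deepest member, it was 0.18 wide, and enrichment was 1.15-fold higher in shA5 (log2 0.20, 0.12 to 0.29). ZNF703 was 1.17-fold higher (log2 0.23, 0.13 to 0.34).

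**Figure D4:**
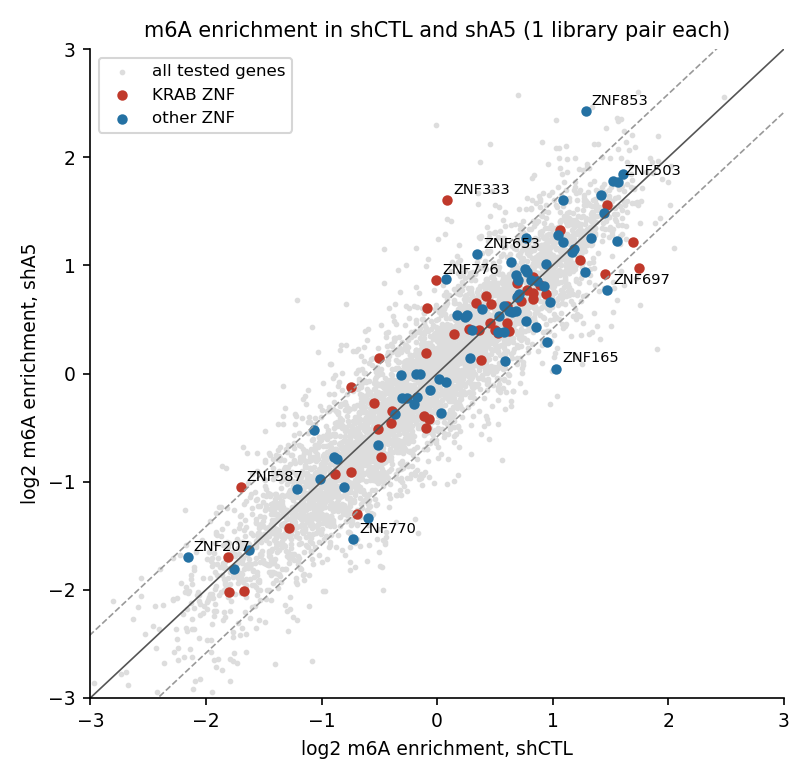
Log2 m6A enrichment in shA5 (vertical axis) against shCTL (horizontal axis), 1 point per gene, for KRAB ZNF genes, other ZNF genes and all tested genes. Tested genes beyond 3 in either direction are outside the axes. The solid line marks equal values and the dashed lines a 1.5-fold change. Most ZNF points lie between the dashed lines, with 9 at or above and 7 at or below them.

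Among members with at least 30 counts in both inputs, enrichment rose most in ZNF776, a KRAB gene of chromosome 19. Its counts were 68 (input) and 119 (m6A-IP) in shCTL and 31 and 137 in shA5, and its log2 enrichment went from -0.01 to 0.87 (change 0.88, interval 0.15 to 1.65). ZNF653, a corepressor of nuclear receptors, had 172 and 385 counts in shCTL and 63 and 327 in shA5, a change of 0.76 (0.29 to 1.26). Its m6A-IP level differed little between the populations (log2 change 0.09) and its input level was lower in shA5, so the rise of the ratio lay in the input. ZNF587 had 268 and 144 counts in shCTL and 168 and 194 in shA5, a change of 0.65 (0.23 to 1.09). In ZNF587 the m6A-IP level was higher in shA5 (log2 0.75) and the input level near equal (0.10), although 45.8% of its 25-base stretches occur in other genes, most of them in ZNF417. ZNF483 (0.64) and ZNF26 (0.62) had intervals that included 0.

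ZNF333 and ZNF853 changed more but had under 30 counts in the shA5 input, and they were named after their values had been seen. ZNF333, a KRAB gene, had 69 and 129 counts in shCTL and 19 and 142 in shA5, a change of 1.52 (0.71 to 2.44). ZNF853 had 55 and 239 counts in shCTL and 10 and 136 in shA5, a change of 1.14 (0.15 to 2.38). The input level was lower in shA5 in both (log2 -1.06 and -1.63). The m6A-IP level was higher in ZNF333 (log2 0.46) and lower in ZNF853 (-0.48).

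Enrichment fell most in ZNF165, a SCAN-domain cancer-testis antigen. It had 35 and 128 counts in shCTL and 46 and 114 in shA5, and its log2 enrichment went from 1.03 to 0.05 (change -0.98, interval -1.79 to -0.23). Only 22.3% of the bases of its counted transcript lie outside other coding transcripts of the gene, and 20.1% lie opposite another gene. ZNF697 had 93 and 458 counts in shCTL and 95 and 390 in shA5, a change of -0.70 (-1.18 to -0.23). In these 2 genes the m6A-IP level was nearly equal between the populations (log2 change 0.16 and 0.09) and the input level was higher in shA5. ZNF770 (101, 107, 71 and 58 counts) and ZNF428 (150, 514, 97 and 285) showed the opposite makeup, with changes of -0.81 and -0.66, m6A-IP levels that fell by 0.55 and 0.52 on the log2 scale and input levels 0.26 and 0.14 higher. ZNF638, which takes part with the HUSH complex in silencing unintegrated retroviral DNA, had 78, 90, 65 and 61 counts and a change of -0.73 (-1.45 to -0.04).

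The inputs measure the RNA level without the antibody. At 1.5-fold, more ZNF mRNAs were higher than lower in shA5, although a level per cell and a number of cells cannot be told apart in bulk RNA. Of the 122 members, 11 (9.02%) were at least 1.5-fold higher in the shA5 input, where 3.44% of tested genes were, and 4 (3.28%) were at least 1.5-fold lower, where 6.43% of tested genes were. The median log2 change was 0.06, against -0.02 for all tested genes. This direction turned at a 2-fold threshold, where 1 member was higher (0.820%; 0.470% of tested genes) and 2 were lower (1.64%; 1.15% of tested genes), and without the filter on counts, where 83 of 444 ZNF genes (18.7%) were higher and 100 (22.5%) lower, against 15.3 and 19.9% of 14911 genes. In both settings all genes too were more often lower. The excess was smaller in 2 subsets of the members: without members that share 25-base stretches, 5 of 82 (6.10%) were higher and 3 (3.66%) lower, and among the 84 members with at least 50% of their bases outside other coding transcripts, 5 (5.95%) were higher and 4 (4.76%) lower, with a median of 0.00. Of the 11, 6 were KRAB genes and the interval excluded 0 for 9 (81.8%, against 90.2% of the 183 tested genes called higher). All 11 also had a higher level in the shA5 m6A-IP than in the shCTL m6A-IP, and 2 of them (ZNF460 and ZNF543) passed 1.5-fold there as well. Of the 4 lower in the input, 2 were also lower in the m6A-IP, and 0 passed 1.5-fold there. Input and m6A-IP of a population start from the same RNA, so the m6A-IPs are no independent check. The same shares among all tested genes called in the inputs were not computed. In the m6A-IPs, 10 members (8.20%; 2.58% of tested genes) were at least 1.5-fold higher in shA5 and 3 (2.46%; 4.89% of tested genes) at least 1.5-fold lower. Input change and change of enrichment both use the input counts, so a low count in 1 input moves them in opposite directions.

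ZNF490, a KRAB gene, had 106 input counts in shCTL and 109 in shA5, whose input library is smaller, or 47.4 and 83.1 CPM, a 1.75-fold higher level (log2 0.80, 0.41 to 1.21). Its m6A-IP level was also higher (log2 0.55), and its enrichment was much the same in both populations (log2 0.38 and 0.13, overlapping intervals). ZNF543, another KRAB gene, had 75 and 76 input counts (33.5 and 58.0 CPM), a log2 change of 0.78 (0.31 to 1.27), with 0.68 in the m6A-IPs. The highest value was that of ZNF165, 2.20-fold (log2 1.14, 0.50 to 1.84), and ZNF697 (0.79) and ZNF276 (0.71) were near ZNF490 and ZNF543. The deepest member of the 11 was ZNF70, with 325 and 295 input counts (145 and 225 CPM), a log2 change of 0.63 (0.40 to 0.86) and of 0.58 (0.45 to 0.71) in the m6A-IPs, named after its values had been seen. Part of the sequence of these genes is shared: 64.3% of the 25-base stretches of ZNF490 occur in other genes, mostly in a readthrough transcript, and 15.8% of those of ZNF70.

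Among members with at least 30 counts in both inputs, ZNF653 had the largest fall of the input, from 76.9 to 48.0 CPM (log2 -0.67, -1.12 to -0.25). ZNF514 (-0.50), ZNF516 (-0.43), ZNF22 (-0.43) and ZNF775 (-0.42) did not reach 1.5-fold. ZNF516, which drives brown fat genes, was the deepest of these, with 496 input counts in shCTL, 215 in shA5 and an interval of -0.67 to -0.20. The other members called lower were ZNF333, ZNF853 and ZNF449, each with under 30 counts in the shA5 input.

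**Figure D5:**
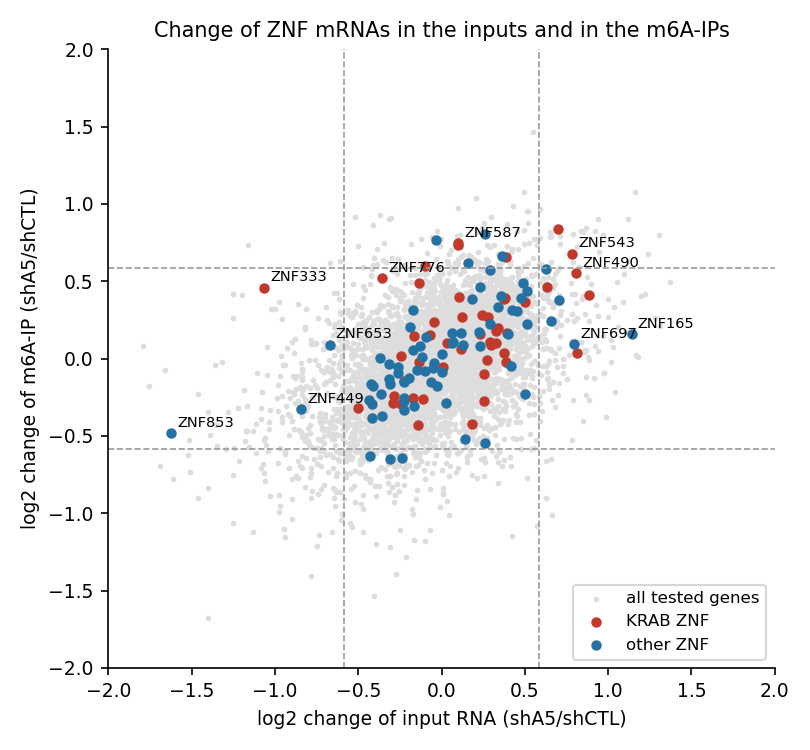
Log2 change of the m6A-IP level (vertical axis, shA5 over shCTL) against log2 change of the input level (horizontal axis), 1 point per gene, for KRAB ZNF genes, other ZNF genes and all tested genes. Dashed lines mark 1.5-fold, and tested genes beyond 2 in either direction are outside the axes. The 11 ZNF genes right of the right dashed line all lie above 0 on the vertical axis, and the 4 left of the left dashed line are ZNF853, ZNF333, ZNF449 and ZNF653.

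By class, the median log2 change of the input was 0.18 in KRAB genes and -0.04 in the others, a difference of 0.22. In the m6A-IPs it was 0.15 and 0.01. Of the 49 KRAB genes 32 (65.3%) were above 0 in the inputs and 34 (69.4%) in the m6A-IPs, against 47.5 and 47.7% of tested genes. In the 25 KRAB genes of chromosome 19 the medians were 0.26 in the inputs and 0.24 in the m6A-IPs, and in the 24 elsewhere 0.10 and 0.09. The difference between the classes was 0.17 with the GC trend removed, 0.16 without members with shared stretches, 0.10 when genes were chosen by their inputs alone and 0.02 without the filter on counts. No test of it was made, since the genes of 1 library pair are not replicates.

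The partners of KRAB proteins, were a list of 20 genes chosen with earlier results of these data known, of which 12 were tested. In shCTL, 1 (MORC2) was enriched at least 1.5-fold, where 22.5% of tested genes were, and 5 were depleted, where 30.3% were, with a median log2 enrichment of -0.42 against -0.11 for all tested genes. In shA5, 1 was enriched and 4 were depleted, where 24.3 and 31.7% of tested genes were. The median of -0.11 was close to the -0.10 of all tested genes. TRIM28, the corepressor that KRAB domains bind, had 642, 833, 345 and 637 counts and log2 enrichments of -0.44 and -0.38. CBX1, an HP1 protein that reads methylated histone H3, had 95, 78, 23 and 75 counts. Its input level fell in shA5 (log2 -1.25, with an interval that lay below 0) and its enrichment was higher (1.51, 0.70 to 2.41). DNMT1, which copies DNA methylation, was at least 1.5-fold higher in the shA5 input (log2 0.63) and UHRF1, which guides it, lower (-0.62, an interval that included 0). In the inputs 1 of the 12 was thus higher and 2 were lower, where 3.44 and 6.43% of tested genes were, and the median change was -0.22. Enrichment was at least 1.5-fold higher in 2 of the 12, CBX1 and UHRF1 (0.68, an interval that included 0), and lower in 0, where 5.38 and 5.09% of tested genes were.

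The lists of genes with known roles held few of the members. Of 9 genes that bind retroelements or imprinted regions, 2 passed the total: ZNF445, which keeps imprints, had 190, 137, 140 and 124 counts and log2 enrichments of -1.28 and -1.43, and ZNF765, which binds LINE-1 elements, had 52, 62, 40 and 79 counts with -0.55 and -0.28. The 2 counted transcripts of ZNF765 differed, with 31, 55, 27 and 68 counts for ENST00000396408 and 21, 7, 13 and 11 for ENST00000594030. Of 23 promoter and chromatin factors 5 passed. ZNF516 (0.78) and ZNF518B (0.70) were enriched at least 1.5-fold in shCTL, ZNF462 (0.24) and ZNF131 (-0.30) were not, and ZNF335, a chromatin regulator needed for brain growth, was below 0 (log2 -0.36; 790, 1084, 447 and 830 counts). Of 11 genes with roles in RNA, translation or mitosis 6 passed, and their values in shCTL spread widely. ZNF830 (1.44) and ZNF622 (0.77), an assembly factor of the large ribosomal subunit, were enriched at least 1.5-fold there, and in shA5 ZNF830 (1.48) was and ZNF622 (0.49) was not. ZNF326 (-0.26), a subunit of the DBIRD elongation complex, lay between, and ZNF638 (-0.60), the double-stranded RNA binder ZNF346 (-0.81) and ZNF207 (-2.16) were depleted. Over all tested genes, 22.5% were enriched and 30.3% depleted at least 1.5-fold in shCTL, and 24.3% were enriched in shA5. The lists are too small to set apart from these shares. Of the 13 members of these lists, 0 passed 1.5-fold in the inputs (3.44% of tested genes higher, 6.43% lower) and 1, ZNF638, in the change of enrichment (5.38% higher, 5.09% lower), numbers too small to set apart from those shares.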

How the data were processed

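Raw counts of 28413 Ensembl transcripts in 4 libraries were deposited, with a transcript left out where it had no count. The submitters' processing notes name bcl2fastq 2.0, fastp 0.23.2, HISAT2, SAMtools 1.9 and MACS2 with hg38, and the methods name StringTie for gene quantification. Whether the deposited counts are its output, the annotation release and the use of strand are not given in the sources used here. Each group held 1 library, no column belonged to another sample, and the m6A peaks were not analysed here.

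Counts were summed per gene symbol, divided by the library total (CPM), and compared as log2 values with a pseudocount of 0.5 CPM. Folds of 1.5 were called and no p-value was computed. Single ratios carry Clopper-Pearson or exact conditional odds ratio intervals (95%), computed without the pseudocount, for counting error only. No fold was taken where the counts behind it were at or under 3. Transcript features, fingers (C2H2 with 12 residues between the pairs), KRAB domains (local alignment to residues 12 to 54 of ZNF10) and 25-base stretches shared with other genes were computed from Gencode v44 transcripts on hg38. A protein table had been planned for the classes, and translated transcripts were used in its place.

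The members, lists and alternatives were chosen with earlier results of these data known. Named members were the 6 with the largest totals and, with at least 30 counts in both inputs, the 6 highest and 6 lowest by enrichment in shCTL, the 5 largest increases and decreases of enrichment and the 5 largest rises and falls of input, plus 3 genes on each side of the total and all members of the role lists. Some further members, such as ZNF564 and ZNF460, were named outside this rule. The steps were tested on simulated data. Software was Python 3.11.15 (Biopython 1.88, matplotlib 3.10.9, scipy 1.17.1, numpy 2.4.6, statsmodels 0.14.6, pandas 2.3.3). Alternative scaling used DESeq2 1.42.0 and edgeR 4.0.16 under R 4.3.3.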

Additional observations from a re-analysis of the deposited data

How the results depend on the processing

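Of 173 values of the main comparisons recomputed under 12 alternatives, 128 stayed within a limit and 45 did not. The limit was 1.5 times for a count, the 95% order-statistic interval for a median and the combined half-widths of such intervals for a difference between KRAB and other members, and a value within it can still change sign. Under edgeR TMM factors, DESeq2 size factors, pseudocounts of 0.1 or 2 CPM and the GC trend removed, the counts and medians over all members stayed within it, although with the GC trend removed the median input change went from 0.06 to 0.10. Below, values follow the order enriched in shCTL, enriched in shA5, depleted in shCTL, depleted in shA5, higher enrichment in shA5, lower enrichment, higher input and lower input. With a total of at least 800 counts (55 genes) they were 35, 32, 3, 3, 1, 2, 3 and 1 (29.1, 31.0, 21.7, 23.7, 1.65, 1.08, 1.08 and 3.33% of 2491 genes), with median enrichments of 0.70 and 0.67 against 0.12 and 0.16. With no filter (444 genes) they were 129, 136, 158, 135, 121, 95, 83 and 100 (21.6, 24.5, 36.7, 37.5, 22.7, 21.4, 15.3 and 19.9% of 14911 genes). The median enrichment turned negative in shCTL (-0.094) and was 0.00 in shA5, against -0.22 and -0.15 for all genes, and lower inputs outnumbered higher ones. At a 2-fold threshold they were 22, 22, 11, 13, 2, 0, 1 and 2 (10.1, 11.97, 16.9, 18.4, 0.846, 0.771, 0.470 and 1.15% of tested genes), and lower inputs again outnumbered higher ones. With at least 40 counts (251 genes) the last 6 were 63, 68, 38, 33, 42 and 28 (35.8, 37.8, 12.6, 12.99, 9.32 and 12.5% of 9269 genes), with medians of 0.11 and 0.13 against -0.25 and -0.25. Without members that share 25-base stretches (82 genes), 7 and 7 were depleted, enrichment was higher in 4 and lower in 4, and input was higher in 5. For this and the next setting the shares of tested genes are those of the main comparisons. Among the 84 members with at least 50% of their bases outside other coding transcripts, an alternative chosen after seeing the data, 11 and 10 were depleted, enrichment was lower in 4 and input higher in 5. These settings change how many genes are counted. The choice by the inputs alone was also made after seeing the data. Of 800 values of 40 named genes, 36 left their counting interval, all with the GC trend removed, and 0 that had passed 1.5-fold changed sign. The difference of median enrichment between KRAB and other members ran from -0.57 to -0.01 in shCTL and from -0.25 to 0.14 in shA5, where it turned positive with the GC trend removed (0.14), without shared stretches (0.10) and with at least 800 counts (0.04), and that of the input change from 0.02 to 0.30. No paired analysis was possible because no group holds more than 1 library, and for the same reason no replicate could be left out. The shA5 input, the smallest library (median 84 counts per member), limits the precision.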

Other observations

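ZNF581 and ZNF551, both on chromosome 19, were higher in the shA5 m6A-IP at near-equal input levels, with 42, 78, 24 and 107 counts for ZNF581 and 53, 88, 29 and 107 for ZNF551, in the order used above. Their changes of enrichment were 0.80 (-0.07 to 1.72) and 0.69 (-0.11 to 1.53), so each interval included 0. ZNF746, in which no finger of the searched spacing was found, had 169, 141, 119 and 198 counts and a log2 change of 0.81 (0.50 to 1.14) in the m6A-IPs with 0.26 in the inputs. Of the 444 ZNF genes with a count, 193 had under 40 counts in all, ZNF91 and ZNF93 among them with 3 and 1, too few for any ratio of these silencers of retroelements. Depth, the counting of shared bases and low expression cannot be told apart there.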
